A study of Mus musculus with 10 samples.

Results

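Adipocytes store triglyceride in a large lipid droplet and secrete hormones, and 10 genes that mark these functions were followed in arthritic mouse synovium with and without maslinic acid. The members were given by name. They are the secreted factors Adipoq, Lep and Cfd, the droplet proteins Plin1, Plin4 and Cidec, the lipases Pnpla2 and Lipe, and the fatty acid handling genes Lpl and Fabp4. A gene was measured by the probe set whose platform annotation names it alone, and where several did, by the one with the highest mean over the 10 arrays. Of the 10 members, 8 had such a probe set, among 18128 genes with one in all. Plin1 and Cfd were not named by any probe set of the annotation used here and are not analysed.

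Tissue came from male DBA/1J mice, an inbred strain prone to antibody-driven arthritis, bought at 5 weeks of age and labelled as 8 weeks old. All mice had collagen antibody-induced arthritis (CAIA): 1 mg of an antibody against type II collagen was injected on day 8 and 25 µg of bacterial lipopolysaccharide on day 11, and mice were killed on day 12. The 5 vehicle mice received corn oil by mouth, and the 5 maslinic acid mice received the olive triterpene maslinic acid in corn oil at 200 mg per kg daily. Both groups ate a diet whose fat was corn based, the submitters chose these mice out of larger groups by a criterion that the labels do not state, and mice without arthritis were not analysed here. Synovium of the left hind leg was freed of muscle and skin by dissection, and 1 Affymetrix array was run per mouse. Skeletal muscle markers still had high values on these arrays, as given below.

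In a fat cell the perilipins and CIDE proteins coat the droplet and shield it from lipases. When hormones call for fuel, adipose triglyceride lipase, encoded by Pnpla2, cleaves triglyceride first, and hormone-sensitive lipase, encoded by Lipe, cleaves the diglyceride that remains. Lipoprotein lipase, encoded by Lpl, works outside the cell and frees fatty acids from circulating lipoproteins, and the carrier encoded by Fabp4 binds them inside. The nuclear receptor PPAR gamma and the C/EBP factors drive much of this gene set as fat cells mature. In the joint, adipocytes lie in the fat pad and beneath the synovial lining. Plin4, Pnpla2 and Lpl are also used by skeletal muscle, and Lpl and Fabp4 by macrophages, with Fabp4 in capillary endothelium as well.

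Promoter windows of 4 members are shown, those of the 3 members with the largest group differences in units of the SD within groups, Pnpla2, Plin4 and Lep, and that of Adipoq, the member most restricted to fat cells. Each runs from 250 bases before to 50 bases after the annotated start, in RefSeq sequence of build GRCm38.p6, 5′ to 3′ on the strand of the gene. Capitals mark matches to 6 motifs searched on both strands. These are the PPAR and RXR direct repeat (AGGTCA, any 1 base, AGGTCA), the C/EBP palindrome TTGCGCAA, the E-box CACGTG, the CCAAT box CCAAT, the TATA box TATAAA and the GC box GGGCGG, and no 2 matches overlap in the windows shown. Pnpla2 lies on the plus strand at chr7:141454938-141455237, Plin4 on the minus strand at chr17:56109733-56110032, Lep on the plus strand at chr6:29059971-29060270 and Adipoq on the plus strand at chr16:23146286-23146585.
Pnpla2: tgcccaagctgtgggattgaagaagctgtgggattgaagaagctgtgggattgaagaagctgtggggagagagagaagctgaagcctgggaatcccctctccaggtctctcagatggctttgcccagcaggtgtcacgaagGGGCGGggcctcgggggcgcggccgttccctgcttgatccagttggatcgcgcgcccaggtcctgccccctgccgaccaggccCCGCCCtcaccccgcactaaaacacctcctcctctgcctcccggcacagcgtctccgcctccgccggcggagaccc
Plin4: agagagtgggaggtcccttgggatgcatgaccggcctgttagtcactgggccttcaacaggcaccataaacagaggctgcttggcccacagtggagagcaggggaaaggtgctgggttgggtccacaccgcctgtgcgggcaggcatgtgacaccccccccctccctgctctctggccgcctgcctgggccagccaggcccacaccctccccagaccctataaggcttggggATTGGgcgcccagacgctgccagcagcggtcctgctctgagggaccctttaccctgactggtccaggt
Lep: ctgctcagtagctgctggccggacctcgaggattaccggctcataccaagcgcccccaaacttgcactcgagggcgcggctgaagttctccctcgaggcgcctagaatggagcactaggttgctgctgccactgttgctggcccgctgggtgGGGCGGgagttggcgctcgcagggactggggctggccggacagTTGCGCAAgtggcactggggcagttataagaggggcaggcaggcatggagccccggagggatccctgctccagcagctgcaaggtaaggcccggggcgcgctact
Adipoq: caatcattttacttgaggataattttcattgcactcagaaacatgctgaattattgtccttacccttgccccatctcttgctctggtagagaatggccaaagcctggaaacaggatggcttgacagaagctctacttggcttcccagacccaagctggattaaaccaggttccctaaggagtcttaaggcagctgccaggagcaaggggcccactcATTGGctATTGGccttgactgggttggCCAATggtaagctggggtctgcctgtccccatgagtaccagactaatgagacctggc

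The table of promoters held 8 of the 10 members, in 10 windows, and lacked Fabp4 and Lpl. Lep carried the C/EBP palindrome at base -55 from its start, a motif found in 0.183% of 32851 promoter windows of this length, and a GC box, found in 35.7%. Adipoq carried 3 CCAAT boxes from base -34 to base -7 and Plin4 carried 1 at base -18, a motif found in 37.4% of windows. Pnpla2 carried 2 GC boxes. Lipe, not printed, carried 6 GC boxes, 2 of them overlapping, and an E-box (7.15% of windows) in the first of its 2 windows, and neither window of Cidec held any of the 6 motifs. The PPAR and RXR repeat, found in 0.0396% of windows, and the TATA box letters, found in 13.6%, were in no member's window. A match is a description of letters and not a bound site.

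The mean deposited values of probe sets ran from 5.12 to 13.9, like log2 intensities, but differ between arrays by very little: the median probe set had a range of 2.1e-05 over the 10 arrays, and 93.5% had a range under 0.001. The scale of a difference is therefore unknown, no fold change is given, and differences are stated in deposited units and as Hedges' g, which divides the maslinic acid mean minus the vehicle mean by the SD within groups. The members varied more between mice than most probe sets, from a range of 0.000158 for Fabp4 to 0.0176 for Adipoq, and 6 of the 8 were among the 5% of probe sets of largest SD. The table has no detection calls, so that a low level cannot be told from background. Of the adipocyte markers Adipoq, Plin1, Cidec, Lep, Cfd, Retn and Pparg, 5 were measured. None of the 18128 genes was at 0, so a value above 0 does not show that a gene was expressed. The arrays of vehicle replicates 3 and 5 had the lowest limma array weights, 0.458 and 0.339 against 0.857 to 2.01 elsewhere, and results are given with and without them. A low weight marks large scatter about the mean of the array's own group over the whole table, not distance from all other arrays. The labels name no batch. In whole tissue, fewer fat cells and less RNA per fat cell cannot be told apart.

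All 8 measured members had a higher mean with maslinic acid, and 0 passed limma's test after Benjamini-Hochberg adjustment over all 39993 probe sets, where 0.0% of probe sets passed, while 9.04% of probe sets had an unadjusted p under 0.05. The exact Wilcoxon test also passed 0 members, and 6.85% of probe sets were under 0.05 in it before adjustment. At an unadjusted p under 0.05 in limma 3 members were higher, Pnpla2, Plin4 and Lep, and 0 lower, while 4.29% of the 18128 genes were higher at that level and 4.54% lower. The median g of the members was 0.98, against -0.00 over all genes, of which 47.9% had a higher mean (8681 higher, 8750 lower and 697 with means equal to within 1e-09). Without vehicle replicates 3 and 5 all 8 means were still higher, at a median g of 0.82, but 0 members reached an unadjusted p under 0.05. Several of the members vary together between mice, so 8 higher means are not 8 independent observations. No member's groups were fully separated, while 0.645% of genes had all maslinic acid arrays above all vehicle arrays. The balance of the whole table depended on scaling: before adjustment limma put 1506 probe sets (3.77%) higher and 2111 (5.28%) lower under 0.05 as deposited, 330 and 1679 after quantile normalization, and 399 and 338 with each array centred on its median. The share of all probe sets with a higher mean was 45.6% as deposited, 37.4% after quantile normalization and 11.6% with centring. The median g over all probe sets was -0.08, -0.23 and -0.39 in these settings.

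**Figure D1:**
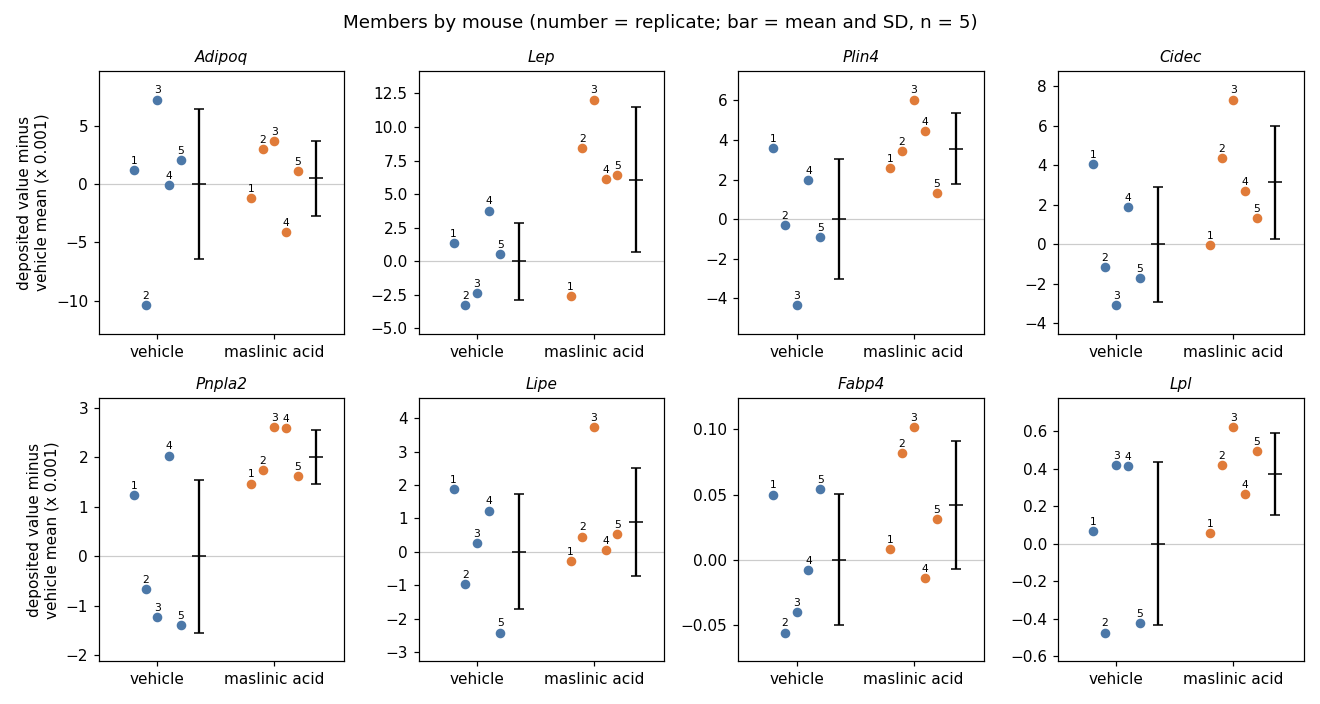
Deposited value of each member in each mouse, as the difference from the vehicle mean in units of 0.001, with replicate numbers, and the mean and SD of each group (n = 5). Vehicle replicates 2, 3 and 5 lie below all maslinic acid mice for Plin4 and Cidec, and the groups overlap for all 8 genes.

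Of the secreted factors, Adipoq, which encodes the insulin-sensitising hormone adiponectin, did not differ detectably. Its values were 9.5478, 9.5361, 9.5538, 9.5465 and 9.5486 in vehicle replicates 1 to 5, and 9.5453, 9.5495, 9.5502, 9.5424 and 9.5476 in maslinic acid replicates 1 to 5. The vehicle group held both the lowest and the highest value, in replicates 2 and 3, and enclosed the whole maslinic acid group. The means were 9.5465 ± 0.00644 and 9.5470 ± 0.0032 (SD, n = 5 each), with g = 0.09 (95% CI -1.04 to 1.20). The exact permutation p was 0.905, two-sided over all 252 assignments of arrays to groups, and limma's adjusted p was 0.976. The interval holds differences of over 1 SD in either direction, so a shift of that size is not excluded with 5 mice a group. Adipoq was at g = -0.59 without vehicle replicate 2 and at 0.69 without vehicle replicates 3 and 5.

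Lep encodes leptin, the hormone by which fat stores signal satiety. Its values were 6.9420, 6.9373, 6.9382, 6.9444 and 6.9411 in vehicle replicates 1 to 5, and 6.9380, 6.9490, 6.9526, 6.9467 and 6.9470 in maslinic acid replicates 1 to 5. Maslinic acid replicates 2 to 5 lay above every vehicle mouse, while replicate 1 lay among the lowest vehicle values. The difference was 0.00609 (g = 1.27, 95% CI -0.03 to 2.52), with an unadjusted p of 0.049 and an adjusted p of 0.552 in limma, and an exact permutation p of 0.0714. Leaving out maslinic acid replicate 1 gave g = 2.61, and leaving out both vehicle replicates 3 and 5 gave 0.97.

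Both measured droplet proteins had higher means, with their lowest values in 3 vehicle mice. Plin4 encodes perilipin 4, a coat protein of nascent droplets, and had values of 8.4904, 8.4865, 8.4825, 8.4888 and 8.4859 in vehicle replicates 1 to 5. In maslinic acid replicates 1 to 5 the Plin4 values were 8.4894, 8.4902, 8.4928, 8.4913 and 8.4881. Vehicle replicates 2, 3 and 5 lay below all maslinic acid mice, and vehicle replicates 1 and 4 lay among them. The Plin4 difference was 0.00356 (g = 1.29, 95% CI -0.02 to 2.54), with an unadjusted p of 0.0464 and an adjusted p of 0.551 in limma, and an exact permutation p of 0.0556. Without vehicle replicates 3 and 5 it was 0.84.

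Cidec encodes FSP27, which fuses droplets into the single large droplet of white fat. Its values were 8.2708, 8.2656, 8.2636, 8.2686 and 8.2650 in vehicle replicates 1 to 5, and 8.2667, 8.2711, 8.2740, 8.2694 and 8.2681 in maslinic acid replicates 1 to 5. The same vehicle mice, 2, 3 and 5, lay below all maslinic acid mice, and the highest value was again in maslinic acid replicate 3. The difference was 0.00315 (g = 0.99, 95% CI -0.26 to 2.18), with an exact permutation p of 0.127 and an adjusted p of 0.611 in limma. Without vehicle replicates 3 and 5 it was 0.48.

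The lipases were the direct question on fat breakdown. Both had higher means, Pnpla2 with the larger g, and the contrast between Pnpla2 and Lipe was not tested. Pnpla2, adipose triglyceride lipase, had the largest g of the members. Its values were 9.0359, 9.0340, 9.0334, 9.0367 and 9.0333 in vehicle replicates 1 to 5, and 9.0361, 9.0364, 9.0373, 9.0372 and 9.0363 in maslinic acid replicates 1 to 5. The maslinic acid mice lay close together, with an SD of 0.000549 against 0.00154 in vehicle, and 4 of the 5 vehicle mice lay below all of them; vehicle replicate 4 lay among them. The difference was 0.00201 (g = 1.57, 95% CI 0.18 to 2.88), with an unadjusted p of 0.0209 and an adjusted p of 0.494 in limma. The exact permutation p was 0.0476. Pnpla2 was the one member that reached an unadjusted p under 0.05 in limma whichever single array was left out, at g from 1.35 to 2.51, the highest without vehicle replicate 4. Without vehicle replicates 3 and 5 it was at 1.08 and did not reach it. The second Pnpla2 probe set had g = 0.96 (-0.28 to 2.14) on 6 distinct values.

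Lipe, hormone-sensitive lipase, showed a smaller difference. Its values were 7.3649, 7.3621, 7.3633, 7.3643 and 7.3606 in vehicle replicates 1 to 5, and 7.3628, 7.3635, 7.3668, 7.3631 and 7.3636 in maslinic acid replicates 1 to 5. Maslinic acid replicate 3 stood above all other mice, and the other 4 maslinic acid mice lay within the vehicle range. The difference was 0.000903 (g = 0.49, 95% CI -0.67 to 1.62), with an exact permutation p of 0.437 and an adjusted p of 0.80 in limma. It was 0.13 without maslinic acid replicate 3, 0.18 without vehicle replicate 5 and 0.10 without vehicle replicates 3 and 5. The second Lipe probe set held only 2 distinct values and is not informative.

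Both genes of fatty acid handling had higher means with overlapping groups. Lpl, lipoprotein lipase, had values of 10.85495, 10.85441, 10.85531, 10.85530 and 10.85447 in vehicle replicates 1 to 5, and 10.85495, 10.85531, 10.85551, 10.85515 and 10.85538 in maslinic acid replicates 1 to 5. Vehicle replicates 2 and 5 were below every maslinic acid mouse. The difference was 0.000371 (g = 0.97, 95% CI -0.26 to 2.16), with an exact permutation p of 0.151 and an adjusted p of 0.614 in limma, and the second Lpl probe set had g = 1.06 (-0.20 to 2.26). Lpl was at 1.02 without vehicle replicates 3 and 5.

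Fabp4, the fatty acid carrier of fat cells and capillaries, varied in the fourth decimal only. Its values were 12.38112, 12.38102, 12.38103, 12.38106 and 12.38113 in vehicle replicates 1 to 5, and 12.38108, 12.38115, 12.38117, 12.38106 and 12.38110 in maslinic acid replicates 1 to 5. Maslinic acid replicates 2 and 3 lay above all vehicle mice and the other 3 among them. The difference was 4.2e-05 (g = 0.76, 95% CI -0.44 to 1.91), with an exact permutation p of 0.23 and an adjusted p of 0.685 in limma. Fabp4 was at 0.80 without vehicle replicates 3 and 5. The other 3 Fabp4 probe sets had g of 0.91, 0.61 and -0.08. With each array centred on its median Fabp4 was at 0.08, and after quantile normalization it held 1 value on all arrays.

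**Figure D2:**
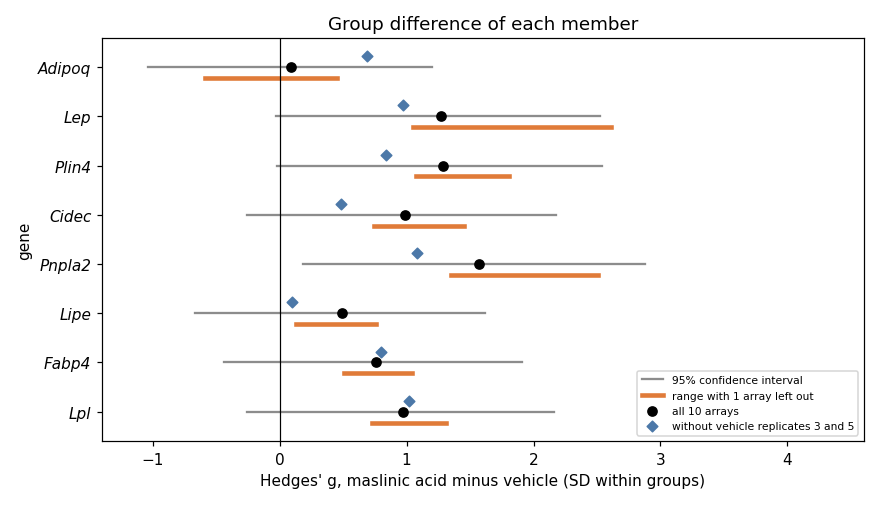
Hedges' g of each member, maslinic acid minus vehicle, with its 95% confidence interval, its range with single arrays left out, and its value without vehicle replicates 3 and 5. The interval of Pnpla2, 0.18 to 2.88, lies above 0, those of the other 7 include it, and 5 of the 8 members were smaller without the 2 arrays.

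The members' values were high and low in some of the same mice. Maslinic acid replicate 3 held the highest value of the 7 members other than Adipoq, and vehicle replicates 2, 3 and 5 held the lowest value of 4, 2 and 2 of the 8 members. The mean z-score of the members, in SD over the 10 arrays, was 1.43 in maslinic acid replicate 3 and 0.66 in replicate 2. It was -1.27, -0.65 and -0.79 in vehicle replicates 2, 3 and 5, and between -0.30 and 0.32 in the other 5 mice. Vehicle replicate 3 combined the highest Adipoq of all mice (z = 1.45) with the lowest Plin4 (-2.04) and Cidec (-1.46).

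**Figure D3:**
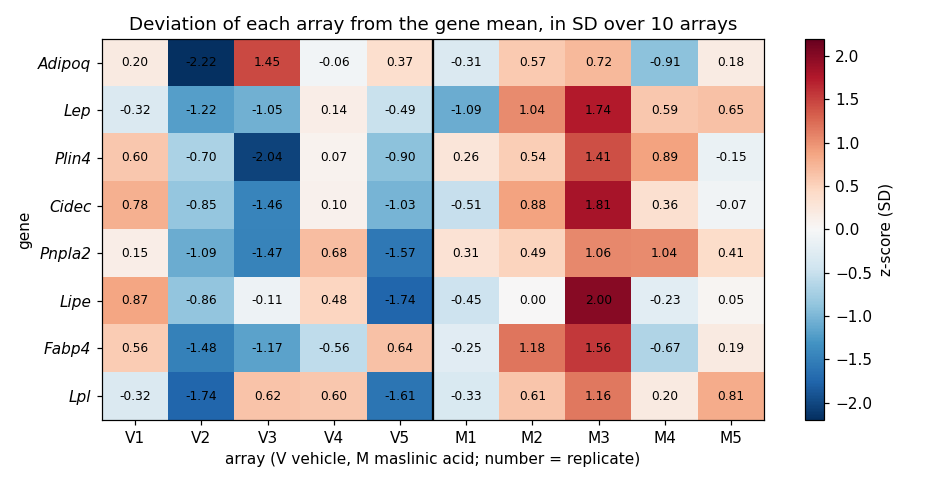
Deviation of each array from the mean of the gene, in SD over the 10 arrays, for the 8 measured members. Maslinic acid replicate 3 is high in every row, from 0.72 for Adipoq to 2.00 for Lipe, and vehicle replicate 3 is high for Adipoq and low for Plin4, Cidec and Pnpla2.

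Correlations over the 10 arrays were computed for Adipoq with each of the 7 others, and 0 of 7 passed a permutation test of Pearson's r after adjustment over the 7. The closest were Lpl (r = 0.59, rho = 0.61, permutation p = 0.0698 and 0.0668, adjusted p = 0.489 and 0.365) and Fabp4 (r = 0.50, rho = 0.55, permutation p = 0.142 and 0.104, adjusted p = 0.496 and 0.365). Without the 2 arrays farthest from the Adipoq median, vehicle replicates 2 and 3, r was 0.14 for Lpl and 0.90 for Fabp4. The relation with Fabp4 thus depended on single mice: without vehicle replicate 3 alone r was 0.91 and passed (permutation p = 1e-05, the smallest that 100000 permutations can give, adjusted p = 7e-05). Without vehicle replicates 3 and 5, r with Adipoq was between 0.64 and 0.90 for all 7, and 1 of them, Fabp4, passed (permutation p = 0.00034, adjusted p = 0.00238). Over all 10 arrays Plin4 (r = -0.14, rho = -0.07) and Pnpla2 (r = -0.03, rho = -0.09) had no detectable relation with Adipoq (permutation p = 0.695 and 0.864 for Plin4, adjusted p = 0.851 and 0.864, and 0.946 and 0.811 for Pnpla2, adjusted p = 0.946 and 0.864).

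All 28 pairs of the 8 members were then examined, a step added after seeing the data, and 5 passed after adjustment over the 28. Cidec was in 4 of them. It was highest with Plin4 (r = 0.91, rho = 0.92; permutation p = 0.00027 and 0.00059, adjusted p = 0.00532 and 0.0165). Next came Lep with Cidec (r = 0.85, rho = 0.79; permutation p = 0.00212 and 0.00894, adjusted p = 0.019 and 0.0626) and Pnpla2 with Cidec (r = 0.82, rho = 0.81; permutation p = 0.00271 and 0.0072, adjusted p = 0.019 and 0.0626). Lipe with Cidec had r = 0.80 and rho = 0.72 (permutation p = 0.00567 and 0.0225, adjusted p = 0.0318 and 0.0833). The fifth pair was Plin4 with Pnpla2 (r = 0.89, rho = 0.81; permutation p = 0.00038 and 0.00673, adjusted p = 0.00532 and 0.0626). By rank only Plin4 with Cidec passed. Without the 2 arrays farthest from the median of the first gene, r was 0.86 for Plin4 with Cidec, 0.87 for Plin4 with Pnpla2, 0.66 for Lep with Cidec, 0.67 for Pnpla2 with Cidec and 0.58 for Lipe with Cidec. As deviations from the group means, which removes the treatment difference, r was 0.88 for Plin4 with Cidec and 0.81 for Plin4 with Pnpla2 (permutation, adjusted p = 0.0126 and 0.0431). Lep with Cidec (0.78) and Lipe with Cidec (0.79) were also under 0.05 in this form (adjusted p = 0.0431 each, permutation), and Pnpla2 with Cidec was not (0.75, adjusted p = 0.0675, permutation). The permutation shuffled the deviations over all 10 arrays and made no allowance for the group means removed. Its p-values are therefore too small, and the pairs at 0.0431 cannot be said to pass once the treatment difference is removed. On the values as deposited, the count of pairs that passed was 13 without vehicle replicate 3, 10 without vehicle replicate 5 and 2 without maslinic acid replicate 3. All arrays share one processing, and its effect on these relations was examined only by rescaling the deposited values. After quantile normalization, where Fabp4 held 1 value, 7 pairs passed, and 6 passed with each array centred on its median. Plin4 with Cidec was at r = 0.90 and 0.91 in these settings. With centring, Fabp4 with Cidec went from 0.72 to 0.03 and Adipoq with Fabp4 from 0.50 to 0.78.

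**Figure D4:**
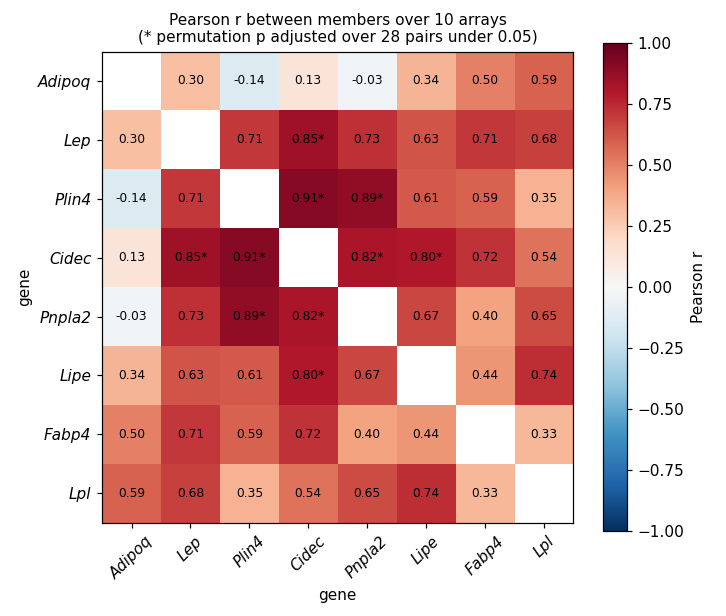
Pearson r between each pair of members over the 10 arrays, with an asterisk where the permutation p adjusted over 28 pairs is under 0.05. Lep, Plin4, Cidec, Pnpla2 and Lipe form a block with r from 0.61 to 0.91, and Adipoq has r from -0.14 to 0.59 with the others.

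The members were also fitted with 16 other adipocyte genes as a covariate, entered as the mean of their z-scores per array. With it Pnpla2 had g = 1.35 and an unadjusted p under 0.05, the only member to reach that level, Plin4 had 1.09, Lep 1.21, Lipe 0.14 and Adipoq -0.58, and 0 of the 8 passed after adjustment in limma. The covariate itself was -1.23 in vehicle replicate 2 and 0.973 in maslinic acid replicate 3, the mice with the lowest and highest mean score of the members. Vehicle replicate 2 also had the lowest mean z-score of skeletal muscle markers, -1.75. Whether the covariate measures the fat content of the sample was not tested.

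Other genes of fat and lipid handling were counted from lists, of which 0 genes passed after adjustment. The other adipocyte genes were higher in 12 of 16, lower in 3 and equal in 1, with a median g of 0.39, and 0 reached an unadjusted p under 0.05. The genes of lowest p among them were Adig, adipogenin (g = 1.06, 95% CI -0.20 to 2.26), and Slc2a4, the insulin-responsive glucose transporter GLUT4 (0.85, -0.37 to 2.01). PPAR gamma, Pparg, was at 0.80 and C/EBP alpha, Cebpa, at 0.33, and both are named after their values were seen, for their role described above. Retn, the remaining measured adipocyte marker, was at 0.24 (95% CI -0.90 to 1.35) and is also named after its value was seen. Lipolysis regulators were higher in 8 of 12 (median g = 0.39), with 1 higher and 1 lower at an unadjusted p under 0.05. These were Insr, the receptor of insulin, which restrains lipolysis (1.74, 0.31 to 3.11; adjusted p = 0.488 in limma), and Abhd5, the protein CGI-58 that activates the lipase made from Pnpla2 (-1.36, -2.62 to -0.03; adjusted p = 0.533 in limma). Pnpla2 and its coactivator Abhd5 thus had differences of opposite sign, at g = 1.57 and -1.36. In deposited units these were 0.00201 and -2.82e-05, sizes that cannot be compared between genes because the scale is unknown. The contrast between the 2 genes was not tested.

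Triglyceride synthesis and droplet assembly genes were higher in 9 of 14 (median g = 0.23). Dgat1, which adds the last fatty acid to triglyceride, was at -2.21 (-3.72 to -0.63; adjusted p = 0.455 in limma). Its difference was -1.7e-05, in values deposited with 6 decimals, on 9 distinct values. Agpat3, a lysophospholipid acyltransferase, was at 1.39 (0.06 to 2.66, adjusted p = 0.523 in limma) with 8 distinct values in a range of 0.000131. All its maslinic acid values lay above all vehicle values, as for 0.645% of all genes (exact permutation p = 0.00794, the smallest that 5 against 5 arrays can give). Fatty acid synthesis genes were higher in 6 of 9 (median 0.45), with Scd1, stearoyl-CoA desaturase, at 1.16 (-0.12 to 2.39) and Elovl6, a fatty acid elongase, at -0.94 (-2.12 to 0.29). Scd1 ran from 10.1834 to 10.1862 in vehicle mice and from 10.1856 to 10.1976 in maslinic acid mice, the highest again in replicate 3.

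Partners of lipoprotein lipase and fatty acid uptake genes were higher in 9 of 11 (median 0.53). Slc27a1, a fatty acid transporter, was at 1.24 (-0.06 to 2.48) and Gpihbp1, which carries lipoprotein lipase to the capillary wall, at 1.04 (-0.21 to 2.24). Thermogenic fat genes were higher in 2 of 7 (median -0.26), with Ppargc1a, a coactivator of mitochondrial genes, at 1.20 (-0.09 to 2.43) and Elovl3 at -0.96 (-2.14 to 0.28). Genes of fat progenitors were higher in 6 of 8 (median 0.92). Pdgfrb, a growth factor receptor of perivascular cells, was at 1.52 (0.15 to 2.83; adjusted p = 0.496 in limma) and Cd34 at 1.08 (-0.18 to 2.28).

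**Figure D5:**
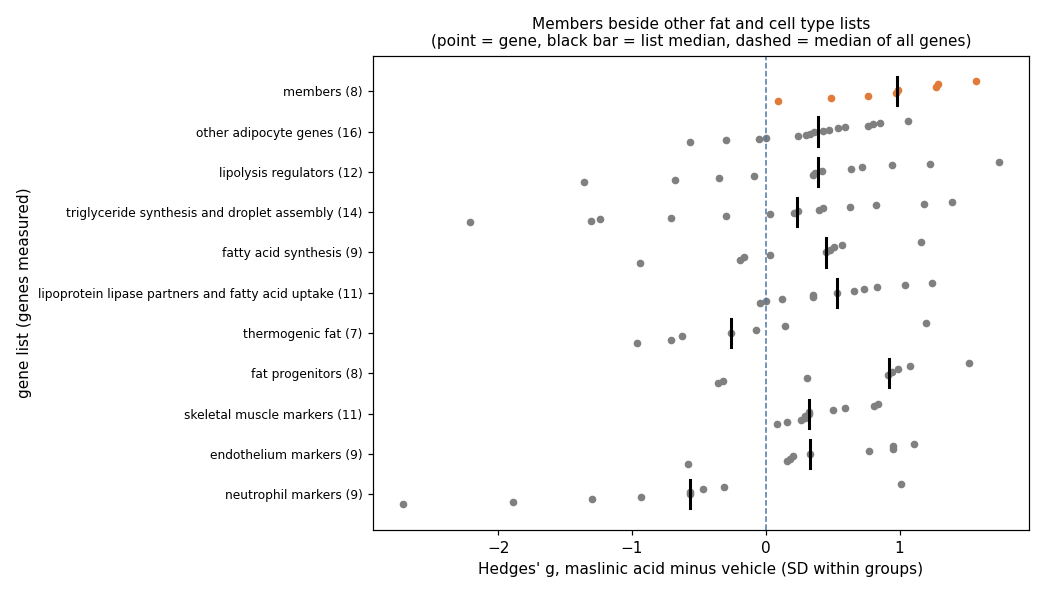
Hedges' g of each gene, maslinic acid minus vehicle, by list, with list medians as black bars and the median of all genes as a dashed line. The members have a median of 0.98, fat progenitors 0.92, other adipocyte genes 0.39, thermogenic fat genes -0.26 and neutrophil markers -0.57. Of the marker lists not plotted, bone markers had the highest median, 1.17 over 5 genes.

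Markers of other cells in the dissected tissue also differed between mice. All 11 skeletal muscle markers had higher means with maslinic acid (median g = 0.32, 0 at an unadjusted p under 0.05 in limma). Their summed level ran from 124.206 to 125.130 in vehicle and from 124.219 to 125.181 in maslinic acid mice. Acta1, the muscle marker of highest mean level, was at 13.26, where the median probe set was at 6.74 and the highest at 13.9. The dissected samples thus still held muscle RNA. Maslinic acid replicate 3, highest for 7 members, had a muscle score of -0.808, the second lowest, and vehicle replicate 2 had the lowest at -1.75. With the muscle score as a covariate Pnpla2 was at 1.38, Plin4 at 1.28 and Lep at 1.14. Endothelial markers were higher in 8 of 9 (median 0.33), with summed levels of 72.554 to 72.557 and 72.557 to 72.558, and their mean z-score was -1.23 and -1.34 in vehicle replicates 3 and 5 against -0.09 to 0.81 elsewhere. Their part in the differences of Fabp4, Lpl and the other members was not tested.

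Macrophage markers were higher in 6 of 10 (median 0.22, summed level 97.415 to 97.437 in vehicle and 97.419 to 97.442 with maslinic acid). Markers of epidermis were higher in 5 of 10 (median 0.04), with a summed level of 64.032 in both groups. Neutrophil markers were lower in 8 of 9 (median -0.57), fibroblast and synovial lining markers higher in 9 of 9 (0.34), bone markers in 5 of 5 (1.17), cartilage markers in 7 of 7 (0.49) and erythroid markers in 5 of 5 (0.18), while nerve sheath markers were lower in 3 of 3 (-0.59). None of the markers of these lists passed after adjustment in limma, and their part in the members' differences was not tested.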

How the data were processed

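Per the labels' protocols, biotin-labelled cRNA from total RNA of each synovium was hybridised to Affymetrix arrays, 1 per mouse. The values deposited by the authors are named a score here, 1 per probe set and array with 6 decimals, since their scale is not stated; R 3.2.1 is named in the submitters' processing notes, but how probes were summarised into values is not given in the sources used here. Although log2 values had been foreseen, the deposited scores were tested unchanged. Of 39993 probe sets, 34202 named 1 gene in the platform annotation, 931 several and 4860 were unnamed here.

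Groups came from the sample titles. Maslinic acid was compared with vehicle by limma 3.58.1 in R 4.3.3 (lmFit, eBayes, no covariate, two-sided, Benjamini-Hochberg over all probe sets, threshold 0.05), by Hedges' g and by exact permutation over 252 assignments. Correlations used 100000 permutations. The limma script was tested on simulated data. Python 3.11.15 with scipy 1.17.1 and matplotlib 3.10.9 made tables and figures. The members and lists were chosen with earlier results of these data known. Genes named were the members, the 2 of lowest p in each of 7 other lists, and those said to be named after their values were seen. Whether the labels' replicate numbers pair the arrays is not known, and the main fit did not use them. Alternatives are given in the closing section. The number of arrays limits the precision.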

Additional observations from a re-analysis of the deposited data

Results flagged for a closer look

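In 4 of 44 gene and group combinations examined, those of the 8 members and of the 14 genes named by lowest p from the other lists, in either group, 1 mouse stood apart from the other 4 of its group by a gap that Dixon's test calls an outlier; chance gives about 1 in 20. Lipe in maslinic acid replicate 3 was 7.366808, against 7.362779 to 7.363591 in the other maslinic acid mice. Abhd5 in maslinic acid replicate 1 was 9.276832, against 9.276854 to 9.276861. Dgat1 in vehicle replicate 4 was 9.354322, against 9.354337 to 9.354343. Agpat3 in vehicle replicate 3 was 8.406475, against 8.406553 to 8.406559.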

How the results depend on the processing

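The 8 members kept 0 calls under every setting run, with adjusted p-values in limma of at least 0.325, and 7 of them kept a higher mean in each that gave a value (Fabp4 had none after quantile normalization), from 0.08 to 1.04 (g) for Fabp4 to 1.08 to 2.51 for Pnpla2. Adipoq changed sign: it was -0.14 with the muscle score and -0.58 with the other adipocyte genes as a covariate, -0.59 to 0.45 with single arrays left out, and its Wilcoxon shift was -0.000124. The number of higher members was 7 to 8 with single arrays left out. The number higher at an unadjusted p under 0.05 was 1 with the replicate block, with array weights and with either covariate, 0 without vehicle replicates 3 and 5, and 1 to 3 with single arrays left out. Over the table, 8 probe sets passed after quantile normalization, 7 of which then held 1 value in each group, and 0 to 1 with single arrays left out. The cause was not tested elsewhere.

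Of the pairs with Adipoq, 1 passed with arrays centred on their medians and 1 without vehicle replicates 3 and 5, where Plin4 was at r = 0.64 and Pnpla2 at 0.70, and 0 to 1 with single arrays left out. In that range Lep ran from -0.06 to 0.61, Plin4 from -0.54 to 0.38, Pnpla2 from -0.56 to 0.32 and Cidec from -0.17 to 0.53. Of all member pairs 2 to 13 passed with single arrays left out. With the replicate number as a block, Pnpla2 was at g = 1.45, Plin4 at 0.96 and Lep at 0.93, and 0 probe sets passed. Same-numbered arrays had correlations of -0.389 to 0.35 in their deviations from group means, and 2 of 5 vehicle arrays correlated best with their own number. With so few arrays this cannot decide whether the numbers pair the mice. Background correction and slide could not be varied from summarised values.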
